A study of Rattus norvegicus with 45 samples.

Results

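The genes of oxidative phosphorylation were followed in the medial preoptic area, a hypothalamic region, of 10-day-old rat pups whose dams had received bisphenols during pregnancy. The genes were chosen by symbol. A nuclear set took the genes with numbered names of the NADH dehydrogenase (Ndufa, Ndufb, Ndufc, Ndufs and Ndufv, so without Ndufab1 and the Ndufaf assembly factors), together with those named for succinate dehydrogenase (Sdha to Sdhd), cytochrome bc1 (Uqcr), cytochrome c oxidase (Cox with a number) and ATP synthase (Atp5), and Cyc1 and Cycs. A second set took the 13 protein-coding genes of the mitochondrial genome. This gave 115 of the 40643 gene rows, of which 102 were nuclear and 13 mitochondrial, while 114 rows named as pseudogene copies of these genes were left out. The nuclear set held 40 genes of complex I, 4 of complex II, 9 of complex III, 1 cytochrome c gene, 21 subunit genes of complex IV, 9 complex IV assembly genes and 18 genes of complex V.

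Per the labels, dams were dosed from gestation day 8 until birth on day 21 to 22 with 50 µg/kg bisphenol A (BPA), with 50 or 150 µg/kg Mixed BP (3 bisphenols, BPA, BPS and BPF, in equal parts), or with corn oil as the control. Counts from 3' Tag-seq, which sequences transcripts from their 3' ends only, were available for 22 female and 23 male libraries from 24 litters, each litter giving at most 1 library of a sex and 21 litters giving both. Females numbered 6 BPA, 6 Mixed BP 50, 5 Mixed BP 150 and 5 corn oil libraries, and males 5, 6, 6 and 6 of the same groups. The libraries held 4397460 to 7223180 counts in females and 4747461 to 6740045 in males. Within a sex the replicates are pups of separate litters, so p-values measure the spread between litters, although dams were assigned as cage-pairs that the labels do not identify. Of the tissue markers, all 10 for the preoptic area, among them Lhx8, Esr1 and Gal, were read in at least 1 library. So were all 10 for the neighbouring striatum. Only 8 of the 10 preoptic markers passed the filter on low counts, against 10 of 10 striatal ones. In CPM (counts scaled to a common library size), the preoptic markers summed to 52.9 to 179 per library and the striatal ones to 819 to 2759. The share of each region in the samples was not tested.

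Oxidative phosphorylation is the process by which mitochondria make most of a neuron's ATP. Complexes I and II pass electrons from NADH and succinate to ubiquinone, complex III passes them on to cytochrome c, complex IV hands them to oxygen, and complex V uses the proton gradient built on the way to make ATP. The mitochondrial genome encodes core subunits of complexes I, III, IV and V, and the nucleus encodes the remainder, all of complex II and the factors that assemble the complexes. Among the nuclear regulators of these genes are NRF1, GABP and the estrogen-related receptors, of which Esrrg is named in the title of the series.

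Promoter sequences are shown because nuclear genes of this pathway are textbook targets of these 3 regulators. RefSeq promoters of the GRCr8 assembly (250 bases before to 50 bases after the start) were found by symbol for 90 of the 102 nuclear genes and were searched on both strands for TCAAGGTCA (estrogen-related receptors), GCGCATGCG (NRF1, whose matches on opposite strands can overlap) and CCGGAAGTG (GABP). The NRF1 letters stood in 8 of 90 promoters (8.89%), against 1.66% of all 27457 promoters of the same length. The GABP letters stood in 5 of 90 (5.56%), against 1.98% of all promoters. The letters for estrogen-related receptors stood in 2 of 90 (2.22%), against 0.412%, and these were before the start of Atp5mc3 and after that of Sdhd. The exact 95% intervals of the 3 shares were 3.92 to 16.8% (NRF1), 1.83 to 12.5% (GABP) and 0.27 to 7.8% (estrogen-related receptors). The last 2 include the share of all promoters, which were not matched to the members in base content or expression. The stretches below belong to genes whose values follow, and each holds 100 bases. They end 1 base before the start, except that of Cycs, which ends 81 bases before it, and are given 5′ to 3′ on the gene's strand with the matched letters in capitals.
Cox15 (GABP letters), chr1:252571472-252571571, minus strand: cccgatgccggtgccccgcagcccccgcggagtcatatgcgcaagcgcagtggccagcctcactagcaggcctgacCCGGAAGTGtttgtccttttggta
Uqcrh (GABP letters on the other strand), chr5:134790883-134790982, minus strand: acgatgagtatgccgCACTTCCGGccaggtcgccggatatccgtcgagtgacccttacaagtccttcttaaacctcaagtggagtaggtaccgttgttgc
Cycs (NRF1 letters on the other strand), chr4:80984848-80984947, minus strand: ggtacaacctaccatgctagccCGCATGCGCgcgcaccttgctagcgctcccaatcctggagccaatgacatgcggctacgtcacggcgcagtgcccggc
Atp5po (NRF1 letters, overlapping on both strands), chr11:44657484-44657583, minus strand: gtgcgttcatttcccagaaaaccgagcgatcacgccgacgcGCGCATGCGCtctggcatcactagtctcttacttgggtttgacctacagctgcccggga
Atp5mc3 (letters for estrogen-related receptors on the other strand), chr3:79220665-79220764, minus strand: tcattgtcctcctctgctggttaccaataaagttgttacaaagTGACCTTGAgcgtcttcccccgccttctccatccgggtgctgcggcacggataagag
Each match is a run of letters and not a tested binding site. The other genes with NRF1 letters were Atp5mc2, Atp5me, Atp5mg, Cox18, Ndufa11 and Uqcrc1, and the others with GABP letters were Cox11, Cox5b and Uqcrq.

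The share of counts in these genes overlapped between all groups. The 102 nuclear genes took 1.40% ± 0.0677 of a library's counts (SD, n = 45) with a range of 1.29 to 1.57%, and the 13 mitochondrial genes took 2.45% ± 0.198 with a range of 2.12 to 3.07%. In females the mitochondrial share averaged 2.41% ± 0.132 after BPA, 2.55% ± 0.0920 after 50 µg/kg and 2.42% ± 0.0507 after 150 µg/kg of the mixture, and 2.43% ± 0.160 after corn oil. In males it averaged 2.27% ± 0.151 after BPA, 2.54% ± 0.310 after 50 µg/kg and 2.43% ± 0.180 after 150 µg/kg of the mixture, and 2.50% ± 0.2998 after corn oil. The nuclear share averaged 1.36 to 1.43% in the 4 female groups and 1.37 to 1.44% in the 4 male groups. The highest mitochondrial value, 3.07%, belonged to corn oil male replicate 6.

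**Figure D1:**
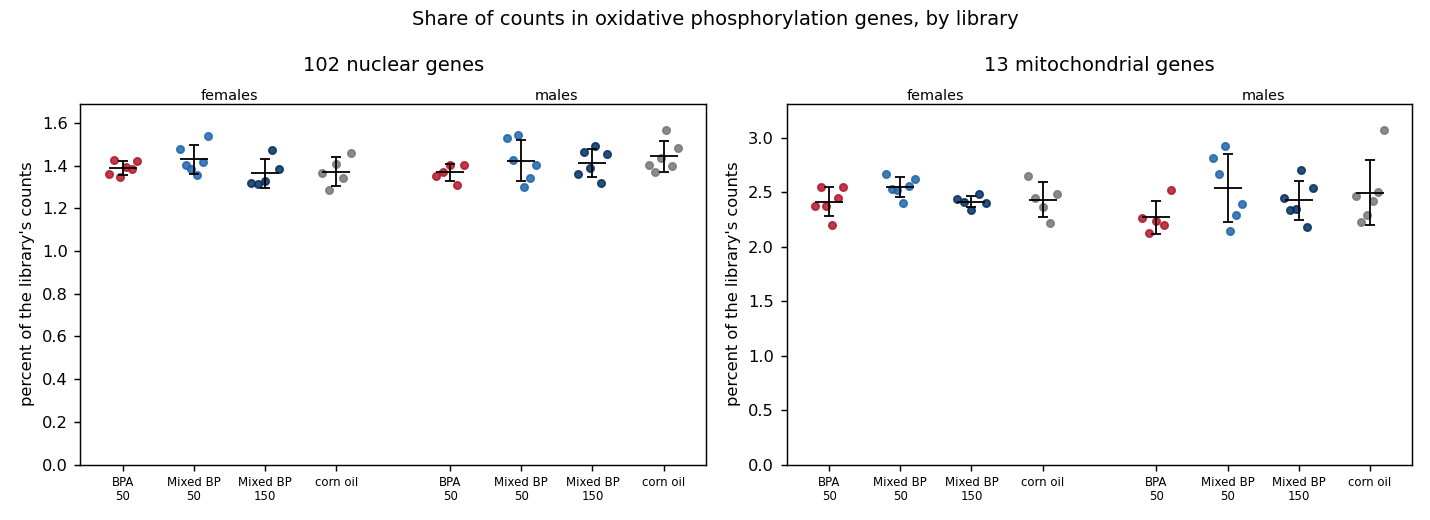
Percent of each library's counts (y axis) in the 102 nuclear genes and in the 13 mitochondrial genes (panels), by exposure and sex (x axis, doses in µg/kg); points are libraries and bars are the mean and SD. The groups overlap throughout, and 1 corn oil male library lies at 3.07% for the mitochondrial genes.

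Of the nuclear genes 97 passed the filter on low counts in both sexes, as did all 13 mitochondrial genes. The 5 that did not were the muscle-type subunit genes Cox6a2 and Cox8b, and Cox8c, Ndufb11b and Ndufb4l1, which had 56, 24, 1, 43 and 10 reads over all 45 libraries. Within groups, the coefficient of variation of normalised CPM (a gene's counts scaled to a common library size) was averaged over groups. It had a median of 7.74% over the nuclear genes tested and was under 10% for 72 of 97. These genes had a median of 629 reads per library, and no coefficient over all genes is given here to compare. The smallest coefficient was that of the complex I subunit gene Ndufa10, at 4.70%. The largest were those of Cox7b2 at 37.5%, Cox6b2 at 26.8% and Cox4i2 at 19.5%, which had 9.84, 74.8 and 32.8 reads per library on average. The mitochondrial genes had 1474 to 20170 reads per library on average and coefficients of 8.15 to 11.8%. Reads from ATP8 and ATP6, and from ND4L and ND4, cannot be told apart where these neighbours on the same strand overlap. How the counting assigned such reads is not given in the sources used here. Nor is its strand setting, so reads of ND6 and of the genes opposite it cannot be told apart where they overlap. Pseudogene rows held 31.5% of the reads of Ndufb4 and its copies together, 30.8% for Atp5mpl (copies named Atp5mj, a RefSeq synonym), 13% for Ndufa13 and 8.05% for Ndufb1, so the counts of these genes are uncertain. Rows with closely related names were kept as separate members. Ndufs6l1, which is not among the RefSeq symbols used, averaged 105 CPM beside 19.0 CPM for Ndufs6. Cox7a2l2 averaged 127 CPM beside 117 CPM for Cox7a2l. Whether such rows share reads was not tested.

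For subunits with tissue isoforms, the widely expressed form and its partner are given side by side as ranges of the 8 group means in CPM. Cox4i1 ran from 344 to 366 CPM and Cox4i2, known as an oxygen-regulated isoform, from 4.86 to 6.58 CPM. Cox6a1 ran from 223 to 238 CPM, and its heart and muscle partner Cox6a2 from 0.0862 to 0.466 CPM. Cox6b1 ran from 248 to 273 CPM, and Cox6b2, best known from testis, from 9.12 to 18.5 CPM. These pairs, like those that follow, are all subunits of complex IV. Cox7a2 ran from 230 to 239 CPM, and Cox7a1, named for heart and muscle, from 58.6 to 69.5 CPM. Cox8a ran from 369 to 390 CPM, and Cox8b from 0.0339 to 0.153 CPM. Ndufa4, a complex IV subunit despite its name, ran from 324 to 345 CPM, and its hypoxia-induced relative Ndufa4l2 from 7.65 to 8.87 CPM. Among the tested genes of these pairs Cox6b2 had the widest group means, with the highest 2.03 times the lowest.

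Each exposure was first compared with corn oil of the same sex. No member passed the test in any of these 6 comparisons (edgeR's quasi-likelihood test with Benjamini-Hochberg adjustment over all genes tested, threshold 0.05), and neither did any other gene (0% of 18354 genes in females and of 18426 in males). DESeq2 and voom also called no member. In each of the 6 comparisons 94 to 96 of the 97 nuclear genes and all 13 mitochondrial genes had a 95% interval that excluded differences over 1.5-fold, against 71.2 to 77.3% of all genes tested. The exceptions were Cox7b2, Cox6b2 and Cox4i2, with 9.84, 74.8 and 32.8 reads per library on average. Intervals widen as reads fall, and the share over all genes runs down to the filter on low counts. The 2 shares are therefore not set against each other at equal read counts. The 3 comparisons of a sex share the corn oil libraries, so their values are not independent of each other.

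In BPA males most genes of the pathway averaged slightly below corn oil males, without passing the test. Of the 97 nuclear genes 79 lay below and 18 above, with a median log2 difference of -0.065 (quartiles -0.12 and -0.028), and all 13 mitochondrial genes lay below, with a median of -0.13. Over all 18426 genes 9221 lay above and 9205 below, with a median of 0.00020. The 97 values come from the same libraries and are not 97 separate observations. For each library the median over the nuclear genes of log2 CPM minus the corn oil mean was taken. It ran from -0.14 to -0.014 in BPA males and from -0.071 to 0.11 in corn oil males, so the ranges overlapped. Before adjustment, at p under 0.05, 10 nuclear genes were lower and 1 was higher and 1 mitochondrial gene was lower, against 5.41% of all genes lower and 5.92% higher. These counts depend on single litters. The 10 became 5 without BPA male replicate 1 or 3 or without corn oil male replicate 4 or 6, 6 without BPA male replicate 2 or 4, and 18 without BPA male replicate 5, which also took the mitochondrial count from 1 to 5. The mitochondrial median was -0.060 without corn oil male replicate 6, the library with the highest mitochondrial share. In bulk tissue, fewer cells of a type and less RNA per cell cannot be told apart. The 10 striatal markers summed to 1441 to 2759 CPM in BPA males (median 2407) and to 1012 to 2285 CPM in corn oil males (median 1545). The 10 preoptic markers summed to 64.6 to 131 CPM in BPA males (median 83.1) and 87.2 to 166 CPM in corn oil males (median 125). The part of these tissue markers in the values of the pathway was not tested.

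**Figure D2:**
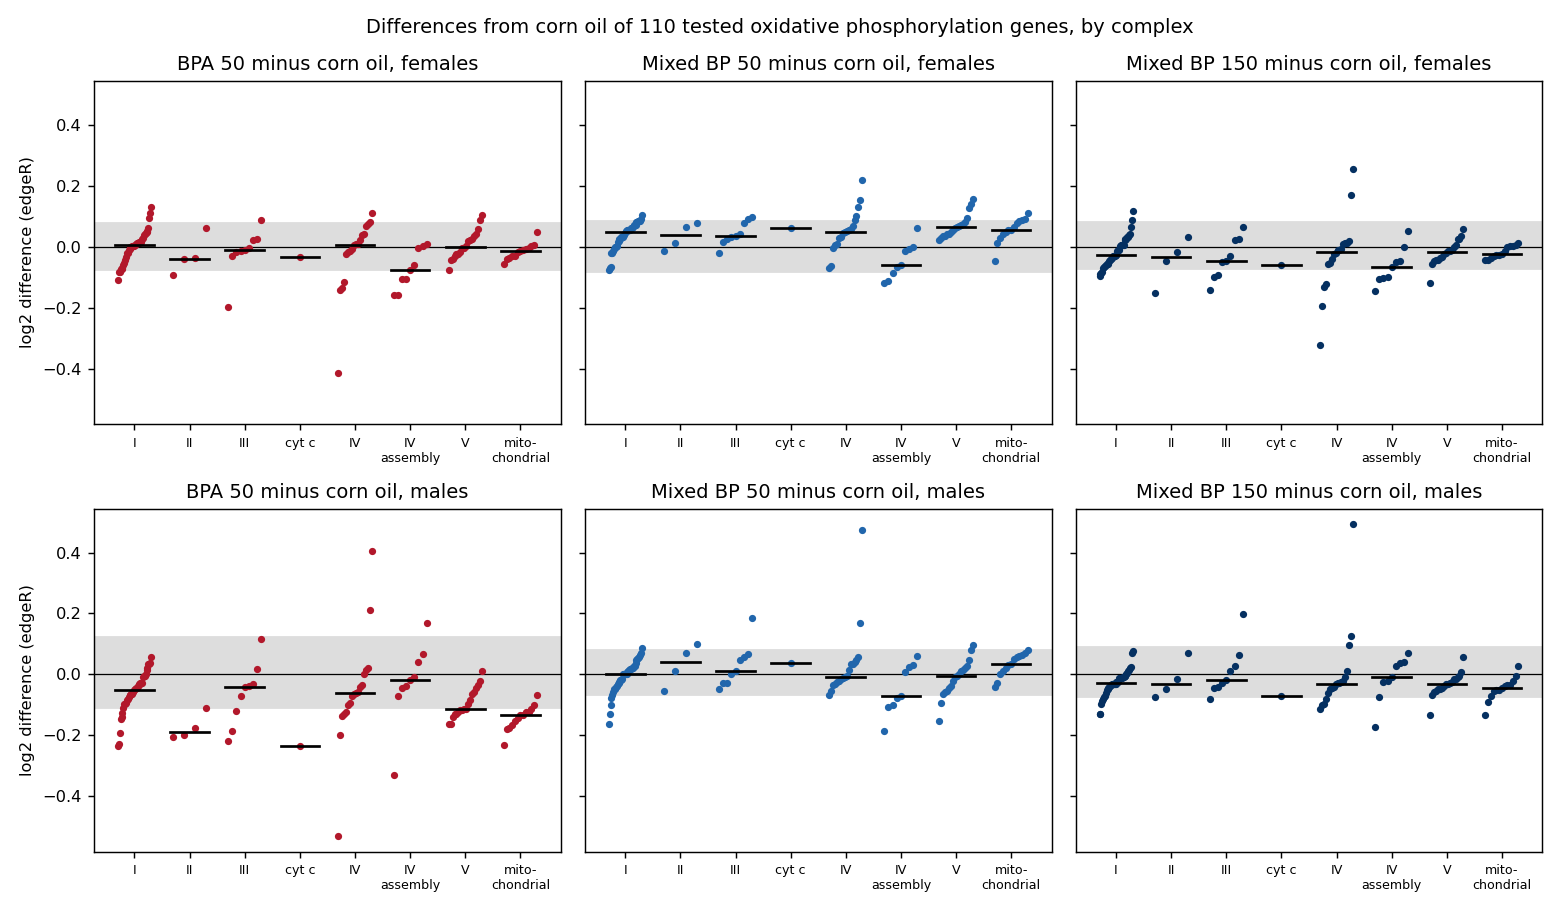
Log2 difference from corn oil (y axis) of the 110 tested genes in the 6 exposure comparisons (panels), by complex (x axis; complex IV assembly and cytochrome c shown apart); points are genes, black bars the median of a complex, and the grey band the middle quartiles of all genes tested. In BPA males every median lies below 0, and those of complex II, complex V, cytochrome c and the mitochondrial genes lie below the grey band.

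Complex I, the NADH dehydrogenase, had 31 of 38 tested genes below the corn oil mean in BPA males, with a median of -0.050. Ndufa9, an accessory subunit, had 77.6, 79.5, 80.7, 85.1 and 85.9 CPM in BPA males, against 86.1 to 103 CPM (median 93.1) in corn oil males. The groups did not overlap, with 85.9 and 86.1 CPM as the nearest values. The log2 difference of Ndufa9 was -0.19 ± 0.067 (SE; edgeR adjusted p = 0.366). Further accessory subunit genes lay below with overlapping groups, Ndufa8 by -0.23 ± 0.086 (edgeR adjusted p = 0.379), Ndufa3 by -0.23 ± 0.11 (adjusted p = 0.439) and Ndufa13 by -0.14 ± 0.066 (adjusted p = 0.430). The other 34 complex I genes had an unadjusted p above 0.05.

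All 4 genes of complex II, succinate dehydrogenase, which also works in the tricarboxylic acid cycle, lay below the corn oil mean in BPA males, with a median of -0.19. Sdhb, the iron-sulfur subunit, had 55.4, 64.9, 65.7, 66.2 and 74.1 CPM in BPA males, against 68.7 to 82.8 CPM (median 73.8) in corn oil males. 1 BPA library lay inside the corn oil range, and the log2 difference of Sdhb was -0.20 ± 0.078 (edgeR adjusted p = 0.395). Sdha, the catalytic flavoprotein, had 31.0, 32.7, 33.5, 34.3 and 38.3 CPM in BPA males, against 29.0 to 44.6 CPM (median 40.4) in corn oil males. The ranges overlapped because the lowest corn oil library lay below all BPA libraries, and the log2 difference of Sdha was -0.21 ± 0.10 (adjusted p = 0.441). Sdhc and Sdhd, which anchor the complex in the membrane, differed by -0.18 ± 0.093 and -0.11 ± 0.075 (adjusted p = 0.474 and 0.569).

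In complex III, 7 of 9 genes lay below corn oil in BPA males, with a median of -0.040. The Rieske iron-sulfur protein gene Uqcrfs1 differed by -0.22 ± 0.094 (edgeR adjusted p = 0.408), and Cyc1, which encodes cytochrome c1, by -0.19 ± 0.10 (adjusted p = 0.467). The small subunit genes Uqcr10 and Uqcr11 had opposite signs, at -0.12 ± 0.064 and 0.12 ± 0.070 (adjusted p = 0.485 and 0.524). Cycs, the mobile electron carrier cytochrome c, had 135, 142, 148, 153 and 174 CPM in BPA males, against 161 to 205 CPM (median 172) in corn oil males. A single BPA library reached the corn oil range, and the log2 difference of Cycs was -0.23 ± 0.11 (adjusted p = 0.428). Counts of Cycs may be shared with its 8 pseudogene rows, which held 5.73% of the reads of the gene and its copies.

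Complex IV assembly held both the member with the lowest p and the one higher gene, which act in succession. Cox15, which makes the heme A of cytochrome c oxidase, had 28.4, 28.7, 30.4, 31.1 and 31.6 CPM in BPA males, against 31.8 to 44.7 CPM (median 37.4) in corn oil males. Every BPA male lay below every corn oil male, by a margin of 31.6 against 31.8 CPM. The log2 difference of Cox15 was -0.33 ± 0.078 (unadjusted p = 0.000257, edgeR adjusted p = 0.324). Cox10, which makes the heme O that Cox15 converts to heme A, had 52.0, 54.6, 55.0, 55.2 and 55.2 CPM in BPA males, against 45.7 to 52.6 CPM (median 47.8) in corn oil males. The highest corn oil library lay above the lowest BPA library, and the log2 difference of Cox10 was 0.17 ± 0.069 (adjusted p = 0.406). Cox20, a chaperone of the COX2 subunit, was at -0.070 ± 0.052 (adjusted p = 0.604). None of the 18 tested subunit genes of complex IV had an unadjusted p under 0.05. The 3 with the lowest p were Cox6b2 at -0.53 ± 0.26, Cox5b at -0.12 ± 0.067 and Cox5a at -0.13 ± 0.074 (adjusted p = 0.448, 0.485 and 0.504), and Ndufa4l2 was at 0.21 ± 0.13 (adjusted p = 0.539).

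Of the 18 genes of complex V, the ATP synthase, 17 lay below corn oil in BPA males, with a median of -0.11. Atp5pd, the d subunit of the peripheral stalk, had 241, 246, 255, 260 and 272 CPM in BPA males, against 274 to 314 CPM (median 280) in corn oil males. The groups did not overlap, and the log2 difference of Atp5pd was -0.16 ± 0.051 (fold 0.894, edgeR adjusted p = 0.361). Atp5if1, the inhibitor that stops the enzyme from running backwards, differed by -0.12 ± 0.062 and the f subunit gene Atp5mf by -0.11 ± 0.063 (adjusted p = 0.471 and 0.495). Cox15, Atp5pd and Ndufa9 were the 3 members with every BPA male below every corn oil male, against 0.434% of all genes. No member had every BPA male above, against 0.711% of all genes.

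**Figure D3:**
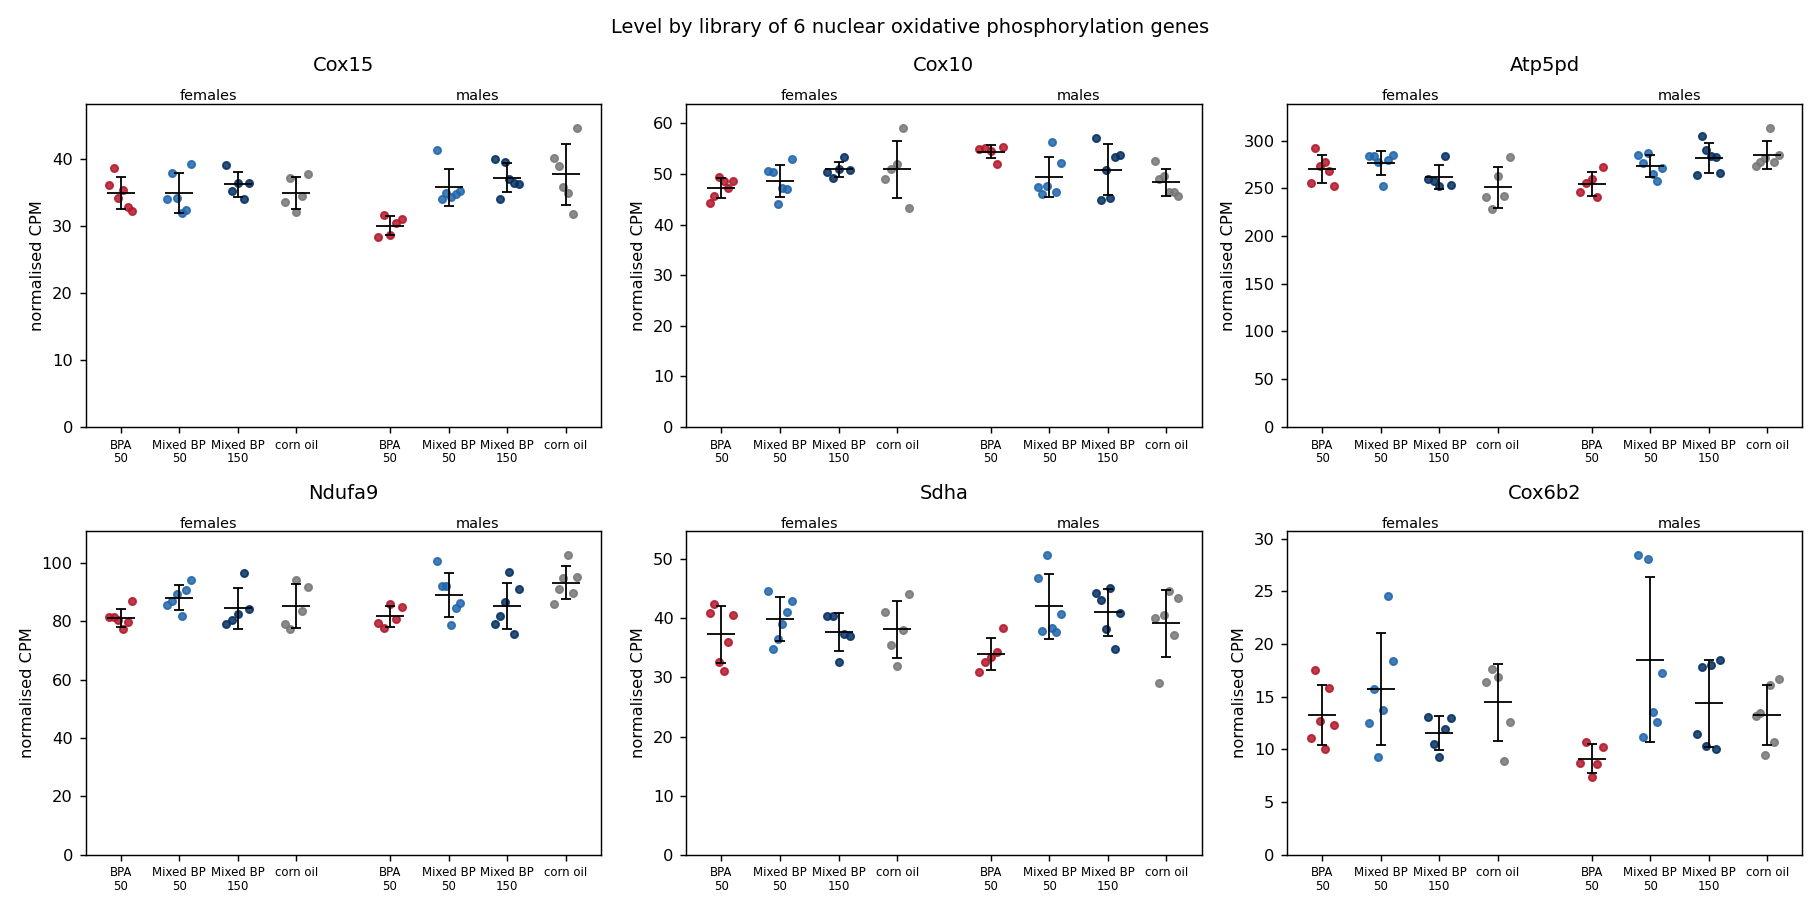
CPM (y axis, from 0) of Cox15, Cox10, Atp5pd, Ndufa9, Sdha and Cox6b2 in every library by exposure and sex (x axis, doses in µg/kg); points are libraries and bars the mean and SD. BPA males lie below all corn oil males for Cox15, Atp5pd and Ndufa9, and the female groups overlap for all 6 genes.

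The mitochondrially encoded genes of BPA males all lay below corn oil, from -0.068 ± 0.11 for ATP8 to -0.23 ± 0.11 for ND4L. For the other complex I genes the log2 differences were -0.17 ± 0.10 for ND1, -0.15 ± 0.10 for ND2, -0.10 ± 0.089 for ND3, -0.14 ± 0.087 for ND4, -0.18 ± 0.11 for ND5 and -0.13 ± 0.088 for ND6. CYTB of complex III was at -0.18 ± 0.10. For complex IV, COX1 was at -0.12 ± 0.086, COX2 at -0.12 ± 0.090 and COX3 at -0.11 ± 0.088, and ATP6 of complex V was at -0.13 ± 0.095. Mitochondrial transcripts are cut from shared precursors, so the 13 values are not 13 separate observations. ND4L, the one with an unadjusted p under 0.05, had 527, 583, 610, 622 and 690 CPM in BPA males, against 629 to 934 CPM (median 680) in corn oil males. The groups overlapped for ND4L (edgeR adjusted p = 0.428). Reads of ND4L and ND4 cannot be told apart where the genes overlap, so the value of ND4L is not separate from that of ND4.

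**Figure D4:**
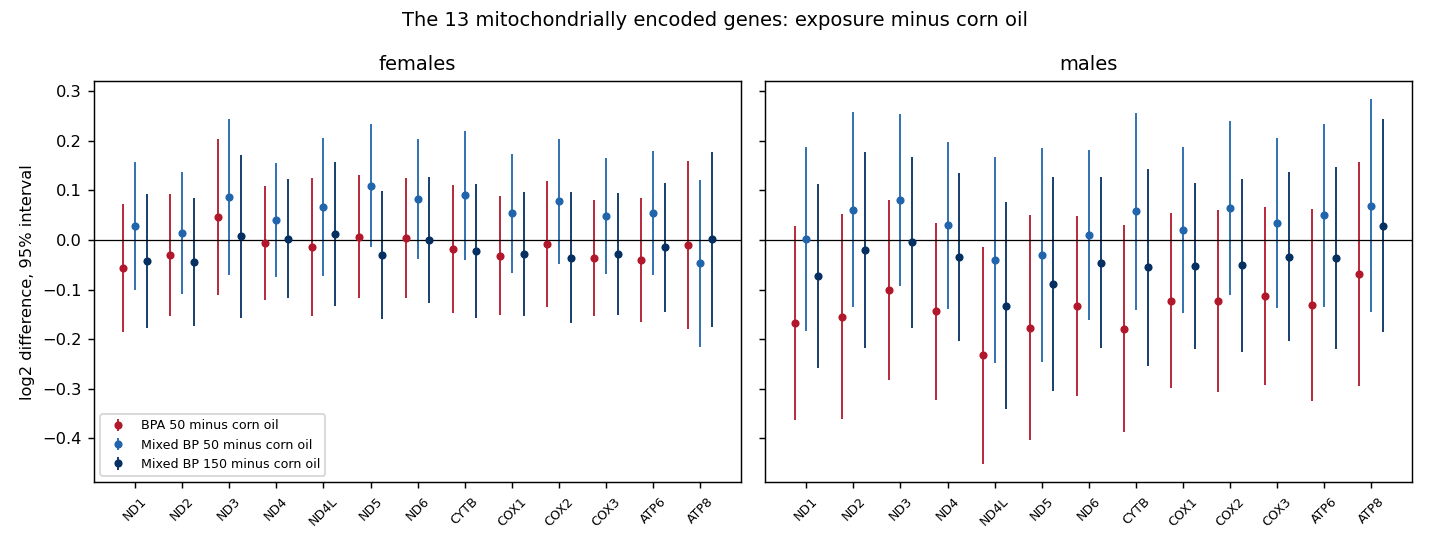
Log2 difference from corn oil with its 95% interval (y axis) for each of the 13 mitochondrially encoded genes (x axis) under BPA 50, Mixed BP 50 and Mixed BP 150 in females (left) and males (right). All 13 points for BPA lie below 0 in males, and the interval excludes 0 for ND4L alone.

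In BPA females the medians lay near 0. Of 97 nuclear genes 47 lay above and 50 below corn oil with a median of -0.0016, and 10 of 13 mitochondrial genes lay below with a median of -0.015. Leaving out single libraries gave nuclear medians from -0.026 (without corn oil female replicate 2) to 0.024 (without corn oil female replicate 5) and mitochondrial medians from -0.050 (without corn oil female replicate 4) to 0.029 (without corn oil female replicate 1). At an unadjusted p under 0.05, 1 member was lower and 0 higher, against 3.63% of all genes in either direction. That member was Cox4i2, which averaged 4.86 ± 0.956 CPM in BPA females (n = 6) and 6.49 ± 1.00 CPM in corn oil females (SD, n = 5), a log2 difference of -0.42 ± 0.20 (edgeR adjusted p = 1.00). Atp5pd, below corn oil in BPA males, averaged 270 ± 14.8 CPM in BPA females and 251 ± 21.5 CPM in corn oil females (0.10 ± 0.057), and Cox15 had 32.2 to 38.7 CPM in BPA females and 32.1 to 37.7 CPM in corn oil females. In complex I the lowest p values belonged to Ndufb11, Ndufs8 and Ndufb1, at 0.13 ± 0.087, 0.10 ± 0.064 and 0.11 ± 0.082. In complex III they belonged to Uqcrc1 at -0.20 ± 0.12, Uqcrc2 at 0.089 ± 0.065 and Uqcrb at 0.025 ± 0.055. In complex IV Cox7b was at 0.11 ± 0.067 and Cox7a1 at -0.12 ± 0.087, and of its assembly genes Cox18, Cox19 and Cox10 were at -0.16 ± 0.086, -0.16 ± 0.087 and -0.11 ± 0.067. In complex V Atp5f1d was at -0.077 ± 0.084 and Atp5mc2 at 0.057 ± 0.064. All of these had an edgeR adjusted p of 1.

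The difference of the BPA effect between the sexes was tested in 1 model over all 45 libraries, without a term for the 21 litters that gave a library of each sex. No member passed, and neither did any other of the 19026 genes (0%). With the female effect minus the male effect, 77 of 97 nuclear genes and 13 of 13 mitochondrial genes lay above 0, with medians of 0.074 and 0.13 beside 0.012 over all genes. The mitochondrial median was 0.084 without corn oil female replicate 4 and 0.053 without corn oil male replicate 6. At an unadjusted p under 0.05 there were 3 higher nuclear genes, Atp5pd, Cox15 and Cox7b, and 1 lower, Cox10, against 7.11% of all genes in either direction. The 3 became 5 without BPA female replicate 1, 9 without corn oil female replicate 5 and 6 without BPA male replicate 5, and with litter as a block they became 7. Atp5pd differed by 0.27 ± 0.073 between the sexes (edgeR adjusted p = 0.565), Cox15 by 0.33 ± 0.10 (adjusted p = 0.588), Cox10 by -0.27 ± 0.092 (adjusted p = 0.618) and Cox7b by 0.21 ± 0.10 (adjusted p = 0.686). Cox16 and Cox4i2 followed on the lower side, at -0.14 ± 0.084 and -0.36 ± 0.25. A difference of the BPA effect between the sexes is thus not shown for any member.

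After 50 µg/kg of the mixture most genes of the pathway averaged slightly above corn oil in females. Of 97 nuclear genes 75 lay above with a median of 0.045, and 12 of 13 mitochondrial genes with a median of 0.054. The nuclear median was 0.024 without corn oil female replicate 2 or Mixed BP 50 female replicate 6, 0.028 without corn oil female replicate 4 and 0.076 without corn oil female replicate 5. The mitochondrial median was 0.084 without corn oil female replicate 1 and 0.025 without corn oil female replicate 4. Judged by an unadjusted p under 0.05, 1 member was higher and 0 lower, against 4.85% of all genes. It was Atp5pd, with 277 ± 12.5 CPM in Mixed BP 50 females (n = 6) and 251 ± 21.5 CPM in corn oil females (SD, n = 5), a log2 difference of 0.14 ± 0.056 (edgeR adjusted p = 0.971). Next on the higher side were ND5 at 0.11 ± 0.060 and Cox7c at 0.15 ± 0.087, and on the lower side Cox16 at -0.12 ± 0.063, the copper chaperone gene Cox17 at -0.11 ± 0.089 and Ndufb10 at -0.066 ± 0.057 (adjusted p = 0.992 for each).

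In males the lower mixture dose left 52 of 97 nuclear genes above corn oil with a median of 0.0010, and 11 of 13 mitochondrial genes with a median of 0.034. Both medians changed sign with single libraries, the nuclear one between -0.030 (without Mixed BP 50 male replicate 3) and 0.020 (without Mixed BP 50 male replicate 4) and the mitochondrial one between -0.0077 (without Mixed BP 50 male replicate 3) and 0.10 (without corn oil male replicate 6). At an unadjusted p under 0.05, 1 member was lower and 0 higher, against 3.46% of all genes, and 4 were lower without corn oil male replicate 1. It was Ndufa6, a complex I subunit gene, at -0.13 ± 0.054. Cox6b2 averaged 18.5 ± 7.81 CPM in Mixed BP 50 males and 13.3 ± 2.88 CPM in corn oil males (SD, n = 6 each), a log2 difference of 0.47 ± 0.23. Uqcrc1 was at 0.18 ± 0.13, Ndufa4l2 at 0.17 ± 0.13, Cox20 at -0.10 ± 0.050 and Cox18 at -0.19 ± 0.10. The edgeR adjusted p was 1 for each of these 6 genes.

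At 150 µg/kg of the mixture, 66 of 97 nuclear genes in females and 74 of 97 in males lay below corn oil, with a median of -0.027 in either sex. Of the mitochondrial genes 9 of 13 in females and 12 of 13 in males lay below, with medians of -0.023 and -0.045. Leaving out single libraries gave nuclear medians of -0.055 (without Mixed BP 150 female replicate 4) to -0.0032 (without corn oil female replicate 5) in females and -0.043 (without Mixed BP 150 male replicate 4) to -0.0094 (without corn oil male replicate 4) in males. The mitochondrial median turned to 0.020 in females without corn oil female replicate 1 and to 0.034 in males without corn oil male replicate 6. In females 0 members had an unadjusted p under 0.05, against 3.07% of all genes, and 4 were lower without Mixed BP 150 female replicate 4. The lowest p values there belonged to Atp5po at -0.12 ± 0.060, Cox5a at -0.13 ± 0.075 and Cox18 at -0.15 ± 0.090 on the lower side, and to Cox7a2l at 0.17 ± 0.087, Ndufa6 at 0.089 ± 0.054 and Ndufb7 at 0.12 ± 0.074 on the higher side, each with an edgeR adjusted p of 1. In males 1 member did, against 4.09% of all genes. It was Ndufa9, with 85.2 ± 7.89 CPM in Mixed BP 150 males and 93.4 ± 5.72 CPM in corn oil males (SD, n = 6 each), a log2 difference of -0.13 ± 0.064 (edgeR adjusted p = 0.992). Ndufs6l1 and Ndufc1 followed at -0.086 ± 0.056 and -0.10 ± 0.066, and Uqcrc1, Cox7b2 and Ndufc2 led the higher side at 0.20 ± 0.13, 0.49 ± 0.34 and 0.077 ± 0.067.

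For both mixture doses the sex difference of the effect was tested in the same way, and again 0% of 19026 genes passed. The effect of the lower dose in females minus that in males had medians of 0.041 and 0.014 in the nuclear and mitochondrial genes, with 3 members higher at an unadjusted p under 0.05 against 4.78% of all genes. The nuclear median was 0.014 without Mixed BP 50 female replicate 6 and the mitochondrial one -0.054 without corn oil male replicate 6, and the 3 became 5 without corn oil female replicate 5. These were Ndufa6 at 0.21 ± 0.072, Atp5pd at 0.20 ± 0.071 and Atp5mk at 0.25 ± 0.12, while Cox16, Cox10 and Cox6b2 led the lower side at -0.14 ± 0.082, -0.10 ± 0.090 and -0.34 ± 0.32 (edgeR adjusted p = 0.954 to 1). For the higher dose the medians were 0.0012 and 0.024, both of which changed sign with single libraries, from -0.024 (without Mixed BP 150 female replicate 4) to 0.029 (without corn oil female replicate 5) and from -0.048 (without corn oil male replicate 6) to 0.072 (without corn oil female replicate 1). The 1 member with an unadjusted p under 0.05, Cox7a2l at 0.28 ± 0.13, stood against 3.79% of all genes. Ndufa6 and Ndufa3 followed at 0.13 ± 0.074 and 0.19 ± 0.14, and Uqcrc1, Uqcr11 and Cox14 led the lower side at -0.34 ± 0.18, -0.16 ± 0.10 and -0.14 ± 0.10.

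The mixture was then compared with BPA, at equal total dose (Mixed BP 50 minus BPA) and at equal BPA dose (Mixed BP 150 minus BPA). These 4 comparisons used the BPA libraries of the comparisons above, so low values in BPA males return here with the sign turned. No member and no other gene passed (0% of 18354 in females and of 18426 in males), and Benjamini-Hochberg adjustment ran within each comparison. In each, 94 or 95 of 97 nuclear genes and all 13 mitochondrial genes had an interval that excluded differences over 1.5-fold, against 70.2 to 77.3% of all genes tested, again not at equal read counts. In males at equal total dose, 72 of 97 nuclear and 13 of 13 mitochondrial genes lay above BPA, with medians of 0.070 and 0.17. Before adjustment, at p under 0.05, 9 nuclear genes were higher and 1 lower, and 3 mitochondrial genes were higher, against 6.18% of all genes higher and 6.17% lower. The 9 became 29 without Mixed BP 50 male replicate 4, 16 without replicate 5 and 21 without BPA male replicate 5. The 3 became 10, 7 and 10 without the same libraries and 5 without Mixed BP 50 male replicate 6, but 0 without Mixed BP 50 male replicate 1, 2 or 3 or BPA male replicate 2 or 4, and 1 without BPA male replicate 1 or 3. The nuclear median was 0.045 and 0.038 without Mixed BP 50 male replicates 1 and 3.

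Cox6b2 had 11.2 to 28.4 CPM in Mixed BP 50 males (median 15.4), against 7.37, 8.58, 8.69, 10.2 and 10.7 CPM in BPA males. The groups did not overlap, and the fold of Cox6b2 was 2.01 (log2 1.00 ± 0.25, edgeR adjusted p = 0.331). Cox15 had 34.1 to 41.4 CPM in Mixed BP 50 males (median 34.9) and 28.4 to 31.6 CPM in BPA males, again without overlap (0.25 ± 0.079, adjusted p = 0.331). These 2 of 97 nuclear genes had every Mixed BP 50 male above every BPA male, against 0.456% of all genes, and 0 had every one below, against 0.461%. Of complex II, Sdha, Sdhb and Sdhc were at 0.31 ± 0.10, 0.21 ± 0.078 and 0.25 ± 0.093 (adjusted p = 0.331, 0.350 and 0.353). Uqcrfs1 was at 0.29 ± 0.094 and Cycs at 0.27 ± 0.11 (adjusted p = 0.331 and 0.361). The 3 mitochondrial genes were CYTB at 0.24 ± 0.10, ND2 at 0.22 ± 0.10 and COX2 at 0.19 ± 0.090. On the lower side were Uqcr11 at -0.16 ± 0.070, Cox10 at -0.14 ± 0.069 and Ndufa2 at -0.10 ± 0.057 (adjusted p = 0.375, 0.409 and 0.474). Striatal markers summed to 819 to 2128 CPM in Mixed BP 50 males (median 1378), and to 1441 to 2759 CPM in BPA males (median 2407), and their part in these values was not tested.

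At equal BPA dose in males, 70 of 97 nuclear and 13 of 13 mitochondrial genes lay above BPA, with medians of 0.041 and 0.10. At an unadjusted p under 0.05, 7 nuclear genes were higher and 0 lower, against 2.16% and 2.14% of all genes. The 7 became 4 without BPA male replicate 2 or 4 and 11 without replicate 5, and the nuclear median was 0.021 without BPA male replicate 1, 0.024 without BPA male replicate 4 and 0.020 without Mixed BP 150 male replicate 4. Cox15 had 34.1 to 40.0 CPM in Mixed BP 150 males (median 36.7) and 28.4 to 31.6 CPM in BPA males. It was the 1 member whose groups did not overlap, against 0.168% of all genes with every library above and 0.206% with every library below, with a log2 difference of 0.31 ± 0.078 (edgeR adjusted p = 0.967). Atp5pd, Sdha and Cox6b2 followed at 0.15 ± 0.051, 0.27 ± 0.10 and 0.66 ± 0.26, and Cox10, Cox16 and Cox11 led the lower side at -0.10 ± 0.068, -0.090 ± 0.063 and -0.21 ± 0.18 (adjusted p = 0.967 for each). Striatal markers summed to 951 to 2532 CPM in Mixed BP 150 males (median 1918) and to 1441 to 2759 CPM in BPA males (median 2407), and preoptic ones to 62.1 to 175 CPM (median 109) and 64.6 to 131 CPM (median 83.1) in the same groups. Their part in these values was not tested.

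In females at equal total dose 77 of 97 nuclear and 12 of 13 mitochondrial genes lay above BPA, with medians of 0.042 and 0.084. The 1 member with an unadjusted p under 0.05 was Cox4i2 at 0.43 ± 0.19, against 4.21% of all genes. That count became 5, 4 and 6 without BPA female replicate 2, Mixed BP 50 female replicate 3 and Mixed BP 50 female replicate 4, and the nuclear median was 0.020 without Mixed BP 50 female replicate 6. Ndufa9 and Atp5f1d followed at 0.12 ± 0.059 and 0.16 ± 0.080, and Ndufa7, Cox7b and Uqcrb led the lower side at -0.069 ± 0.055, -0.056 ± 0.064 and -0.044 ± 0.052. At equal BPA dose the medians were -0.023 and 0.0033. The nuclear median lay between -0.050 (without Mixed BP 150 female replicate 4) and -0.0059 (without Mixed BP 150 female replicate 3), and the mitochondrial one between -0.027 (without BPA female replicate 4) and 0.023 (without BPA female replicate 2). The 1 member with an unadjusted p under 0.05, Uqcrc2 at -0.14 ± 0.066, stood against 2.27% of all genes. Cox5a and Ndufb11 followed at -0.13 ± 0.072 and -0.14 ± 0.088, and Cox10, Ndufb7 and Cox7b2 led the higher side at 0.11 ± 0.067, 0.11 ± 0.072 and 0.40 ± 0.30. The edgeR adjusted p was 1 for all of these genes.

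Between the mixture doses, Mixed BP 150 females lay below Mixed BP 50 females in 79 of 97 nuclear genes, including all 18 of complex V, and in 12 of 13 mitochondrial genes, with medians of -0.062 and -0.077. No member and no other gene passed (0% of 18354 in females, 0% of 18426 in males). Judged by an unadjusted p under 0.05, 8 nuclear genes and 1 mitochondrial gene, ND5, were lower and 0 higher, against 2.18% of all genes lower and 2.54% higher. The 8 became 5 without Mixed BP 50 female replicate 1 or 5 or Mixed BP 150 female replicate 1, 3 or 5, and 3 without Mixed BP 50 female replicate 6. They became 16 without Mixed BP 50 female replicate 4 and 17 without Mixed BP 150 female replicate 4, and the nuclear median was -0.041 without Mixed BP 50 female replicate 6. Atp5po, the subunit that links the stalk of ATP synthase to its catalytic head, had 120, 135, 135, 136 and 139 CPM in Mixed BP 150 females, against 135 to 166 CPM (median 153) in Mixed BP 50 females. The groups overlapped, and the log2 difference of Atp5po was -0.19 ± 0.058 (edgeR adjusted p = 0.987). Uqcr11 and Ndufa10 followed at -0.19 ± 0.073 and -0.12 ± 0.052, and Ndufb7, Ndufs6 and Cox7a2l led the higher side at 0.12 ± 0.071, 0.11 ± 0.10 and 0.083 ± 0.083. COX3 was the 1 member whose groups did not overlap, with 3097 to 3307 CPM in Mixed BP 150 females and 3314 to 3559 CPM in Mixed BP 50 females (-0.077 ± 0.057), against 0.147% of all genes with every library below and 0.207% with every library above.

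In males the medians between the mixture doses were -0.023 and -0.074, with all 13 mitochondrial genes lower in Mixed BP 150 males. Leaving out single libraries gave nuclear medians of -0.052 (without Mixed BP 50 male replicate 4) to -0.0016 (without Mixed BP 50 male replicate 1) and mitochondrial medians of -0.13 (without Mixed BP 50 male replicate 4) to -0.026 (without Mixed BP 50 male replicate 3). By edgeR 0 members had an unadjusted p under 0.05, against 2.82% of all genes. The members with the lowest p were Ndufv1, Cox20 and Cox14 at 0.16 ± 0.086, 0.093 ± 0.050 and 0.11 ± 0.066 and Ndufs6l1, Cox6b2 and Atp5mg at -0.087 ± 0.056, -0.35 ± 0.23 and -0.074 ± 0.052.

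Maternal care after birth was recorded by the study as a possible moderator, and the labels give a licking/grooming and a nest attendance score for each litter, in units they do not state. Within each sex a slope per SD of the score was estimated beside the exposure terms. For licking/grooming in males, whose scores ran from 91.9 to 547 with an SD of 119, 84 of 97 nuclear genes and 13 of 13 mitochondrial genes had a negative slope, with medians of -0.027 and -0.020 beside -0.00010 over all genes. No member passed (edgeR, 0% of 18426 genes). At an unadjusted p under 0.05, 16 nuclear genes had a negative slope and 0 a positive one, against 2.28% of all genes with a negative and 2.17% with a positive one. Subunit genes of complex IV made up 8 of the 16 and those of complex V 4. The 16 became 8 without Mixed BP 50 male replicate 3, 10 without Mixed BP 50 male replicate 4 or corn oil male replicate 4 and 27 without Mixed BP 50 male replicate 5. The nuclear median was -0.018 without Mixed BP 50 male replicate 3, whose score was 108. The mitochondrial median turned to 0.0031 without that library, and was -0.0050 without Mixed BP 50 male replicate 4 and -0.047 without corn oil male replicate 4.

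Atp5mc1, a c-ring gene of ATP synthase, had the lowest p in males, with a slope of -0.075 ± 0.020 per SD (edgeR adjusted p = 1.00). Its group means lay between 273 to 295 CPM over both sexes. Cox7a2 had a slope of -0.060 ± 0.018 and Cox7c of -0.074 ± 0.026, both small subunits of complex IV. The other 13 were Cox4i1, Cox5a, Cox5b, Cox8a, Ndufa4 and Cox7a2l2 of complex IV, Atp5mc3, Atp5me and Atp5f1e of complex V, Uqcrh and Uqcr11 of complex III, Ndufb10 of complex I and Sdha of complex II. Their slopes ran from -0.078 ± 0.031 for Atp5mc3 to -0.044 ± 0.019 for Atp5f1e, all with an adjusted p of 1. Cox20, Cox11 and Cox7b2 led the positive side at 0.026 ± 0.019, 0.087 ± 0.065 and 0.13 ± 0.14. Uqcrh, the hinge protein gene of complex III, had a slope of -0.055 ± 0.022, and it and Atp5mc3 are among the genes whose upstream stretches are printed above. Of the tissue markers, 10 of 10 striatal ones had a negative and 8 of 8 tested preoptic ones a positive slope, with medians of -0.068 and 0.076, and 7 of 7 astrocyte markers had a negative one with a median of -0.028. Their part in the slopes was not tested.

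**Figure D5:**
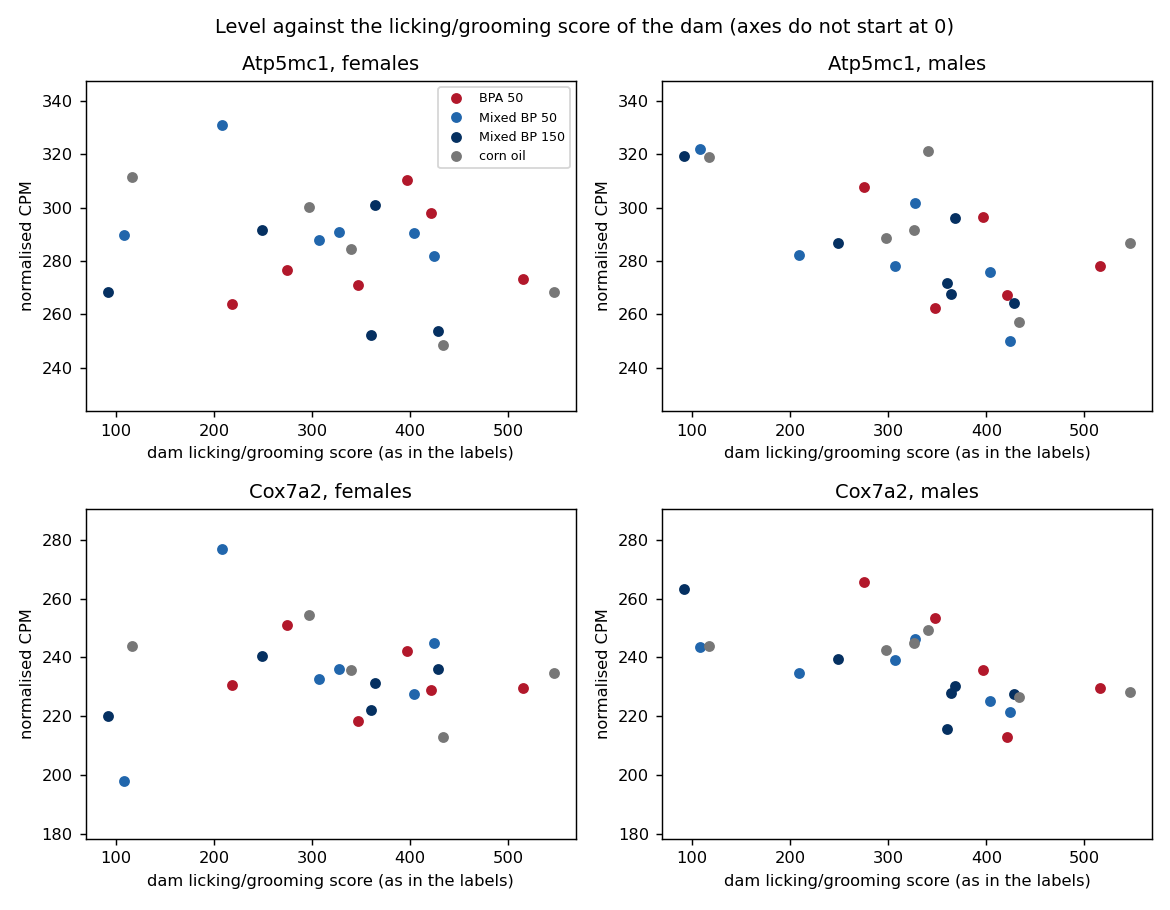
CPM (y axis, not starting at 0) of Atp5mc1 and Cox7a2 against the licking/grooming score of the litter (x axis, unit not stated in the labels) in females and males; points are libraries coloured by exposure. The fitted slopes are -0.075 ± 0.020 and -0.060 ± 0.018 per SD in males and -0.034 ± 0.023 and -0.0014 ± 0.024 in females for Atp5mc1 and Cox7a2.

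In females the licking/grooming slopes had medians of -0.015 and -0.017 in the nuclear and mitochondrial genes, which were -0.0042 without corn oil female replicate 5 and -0.0044 without corn oil female replicate 4. Before adjustment, at p under 0.05, 2 nuclear genes had a negative slope and 0 a positive one, against 1.48% and 1.27% of all genes. The 2 became 5 without BPA female replicate 1 or Mixed BP 150 female replicate 4 and 4 without BPA female replicate 6, and 1 without BPA female replicate 4, Mixed BP 50 female replicate 3 or corn oil female replicate 4 or 5. They were Cox6b2 at -0.19 ± 0.067 and the complex I core subunit gene Ndufs1 at -0.064 ± 0.029. Ndufa11 followed at -0.063 ± 0.031, and Cox10, Cox18 and Ndufa5 led the positive side at 0.039 ± 0.024, 0.036 ± 0.032 and 0.029 ± 0.026 (edgeR adjusted p = 1 for each). Whether the slopes differ between the sexes was not tested.

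For nest attendance the medians were -0.0045 and -0.0016 in females and -0.017 and -0.013 in males, and no member passed (edgeR, 0% of 18354 genes in females and of 18426 in males). Negative slopes were held by 79 of 97 nuclear and 12 of 13 mitochondrial genes in males, and by 57 and 7 in females. In females both medians changed sign with single libraries, from -0.013 to 0.0042 without Mixed BP 50 female replicate 1 and corn oil female replicate 2 for the nuclear genes, and from -0.010 to 0.015 without Mixed BP 50 female replicate 4 and BPA female replicate 6 for the mitochondrial ones. In males they turned to 0.0014 and 0.022 without Mixed BP 50 male replicate 4. In females 1 member, Ndufv1 at -0.089 ± 0.042, had an unadjusted p under 0.05, against 3.16% of all genes. It was followed by Atp5f1d and Ndufa11 at -0.053 ± 0.031 and -0.056 ± 0.033 and by Ndufa1, Cox6a1 and Cox10 at 0.045 ± 0.023, 0.023 ± 0.021 and 0.027 ± 0.025. In males 1 was positive and 1 negative, Cox7b2 at 0.27 ± 0.12 and Ndufb9 at -0.049 ± 0.023, against 2.29% of all genes, and the negative count became 4 without Mixed BP 150 male replicate 4 or BPA male replicate 4. Ndufb1, Cox4i2, Ndufc1 and Ndufa13 followed at 0.038 ± 0.022, 0.068 ± 0.057, -0.044 ± 0.024 and -0.041 ± 0.023.

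The wider mitochondrial programme was read in 6 lists beside the members, for the contrast of BPA males with corn oil males. None of their tested genes passed (edgeR, lowest adjusted p = 0.362), and the counts here are at an unadjusted p under 0.05, which 5.41% of all genes passed as lower and 5.92% as higher. Counts of 1 or 2 genes in these lists are therefore not read as results. The tricarboxylic acid cycle, which feeds NADH and succinate to the chain, had 16 of 16 genes below corn oil with a median of -0.093 and 2 lower, fumarase (Fh) at -0.33 ± 0.14 and malate dehydrogenase (Mdh2) at -0.18 ± 0.082. Outer membrane, carrier and cristae genes had 13 of 17 below with a median of -0.097, 1 lower, Vdac3 at -0.22 ± 0.089, and 1 higher, Chchd6 at 0.18 ± 0.083. Assembly factors of complexes other than I had 18 of 28 below with a median of -0.078 and 2 lower, Higd2a at -0.23 ± 0.093 and Bcs1l at -0.32 ± 0.13. Those of complex I had 10 of 16 below with a median of -0.031, with Nubpl at 0.31 ± 0.10 and Ndufaf7 at -0.23 ± 0.082. Mitochondrial transcription and RNA handling genes were even, with 11 above and 12 below and a median of -0.0043, and Tefm was at -0.47 ± 0.21. The regulators of mitochondrial biogenesis had 12 of 14 above corn oil and a median of 0.11. Ppargc1a, the coactivator PGC-1alpha, was at 0.21 ± 0.074 (edgeR adjusted p = 0.364), Esrrg at 0.29 ± 0.15 (adjusted p = 0.471) and Nrf1 at 0.11 ± 0.064 (adjusted p = 0.524).

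The same lists in BPA females had medians between -0.020 and 0.027, with Ppargc1a at -0.14 ± 0.075 and Esrrg at -0.12 ± 0.12 (edgeR adjusted p = 1 for both). For the mixture at 50 µg/kg in females, where the nuclear members lay above corn oil, the tricarboxylic acid cycle had 14 of 16 genes above with a median of 0.043. The outer membrane, carrier and cristae genes had 12 of 17 above with 0.045, and the regulators had 6 of 14 above with -0.040, Ppargc1a being at -0.21 ± 0.075 (edgeR adjusted p = 0.971). In BPA males and in Mixed BP 50 females the median of the regulators had the opposite sign to that of the nuclear members, a description that was not tested. The regulators' own median is not given here for the other comparisons with corn oil, so no general relation is described.

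The other marker lists in BPA males set against corn oil males held no gene past the threshold. Their median log2 differences were -0.066 for 11 neuronal, -0.062 for 7 astrocyte, -0.074 for 9 oligodendrocyte lineage and -0.12 for 8 microglial markers. They were 0.12 for 8 endothelial, 0.038 for 8 pericyte and fibroblast, 0.085 for 6 ependymal, -0.040 for 3 choroid plexus and 0.096 for 6 red blood cell markers. The striatal list had 9 of 10 markers above corn oil with a median of 0.56, and the preoptic list 6 of 8 tested markers below with a median of -0.30. Neuronal markers summed to 4301 to 4982 CPM in BPA males and 4343 to 5151 CPM in corn oil males, and the part of these lists in the values of the members was not tested.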

How the data were processed

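The deposited tables, 1 per sex, held whole-number counts per gene, read here as raw counts, and their names mark outliers as removed by the authors. Per the submitters' processing notes, cutadapt 1.18, STAR 2.7.3a, SAMtools 1.10 and bedtools 2.27.1 were used with build mRatBN7.2, while the settings, annotation and strand of counting were not stated there. Each sex was fitted with all its groups in edgeR 4.0.16 (R 4.3.3; TMM, low counts filtered with a minimum count of 10 and total of 15, robust quasi-likelihood test, Benjamini-Hochberg threshold 0.05 over all genes tested). Care scores entered with exposure, and sex differences were fitted over 45 libraries. The alternatives were DESeq2 1.42.0, voom with quality weights (limma 3.58.1), no filter, other library sizes, fits of the compared groups alone, replicate and litter blocks, and each library left out. In counts simulated for the comparison of BPA males with corn oil males (18239 genes), 91% of genes changed by 1 on the log2 scale were called, 18% of those changed by 0.3, and 3 of 18039 unchanged genes. The changed genes were drawn from those above a CPM floor, and counts were drawn independently for each gene. Changes smaller than 0.3 were not simulated, so detection of the smaller differences reported here is not known. Named genes are the mitochondrial ones, complex II, Cyc1, Cycs, the isoform pairs, the 3 lowest p in each direction of a comparison and, for BPA against corn oil, of each complex. Genes that were described beyond these were chosen after their values were seen. The members and lists were chosen with earlier results of these data known. Promoters are RefSeq's (GRCr8), without coordinates shared with mRatBN7.2.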

Additional observations from a re-analysis of the deposited data

Results flagged for a closer look

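Of the 61 groups of 4 to 10 libraries examined, 7 held 1 library far from its nearest neighbour by Dixon's test, and chance alone gives about 1 in 20. The mitochondrial share of counts reached 3.07% in corn oil male replicate 6, and ND4L reached 934.1 CPM in a corn oil male. Atp5pd reached 313.5 CPM in a corn oil male and was as low as 251.8 CPM in a Mixed BP 50 female. Cox15 reached 41.35 CPM in a Mixed BP 50 male, Cox10 was as low as 52.05 CPM in a BPA male, and Atp5po as low as 120.4 CPM in a Mixed BP 150 female. The cause of these values was not tested.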

How the results depend on the processing

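No member passed the threshold in any of the 19 comparisons under edgeR, DESeq2, voom or any fit with 1 library left out. The replicate numbers showed no pairing of the libraries. Deviations of same-numbered libraries correlated with a median r of 0.015 over 31 female pairs, of which 6 were over 0.1. In males the median was 0.0048 over 33 pairs, of which 7 were over 0.1. Differently numbered libraries had a median r of 0.0006 over 150 female pairs (26 over 0.1) and -0.0016 over 165 male pairs (36 over 0.1). With the replicate number as a block, the median differences of BPA males from corn oil males were -0.060 for the nuclear and -0.10 for the mitochondrial genes, and no call changed. The 10 nuclear genes lower in BPA males at an unadjusted p under 0.05 became 5 with that block, and 14 with voom or with only the compared groups fitted. The 16 nuclear genes with a negative licking/grooming slope in males at that p became 4 with the block and 13 with voom. In females the mitochondrial median of that slope turned to 0.0019 with the block, with 7 of 13 genes above 0, and the nuclear median of the nest attendance slope turned to 0.0087. Of the other medians near 0, those of Mixed BP 150 against BPA in females (mitochondrial, -0.0006 with voom), Mixed BP 50 against corn oil in males (nuclear, -0.0032 with DESeq2) and the sex differences of the mixture effects (mitochondrial, -0.006 and -0.0128 with voom; nuclear at the higher dose, -0.0136 with voom) also changed sign. Many counts of 0 or 1 at an unadjusted p under 0.05 also moved with single libraries. Uqcrb in BPA females, 0.025 in all libraries, ranged from -0.0026 without corn oil female replicate 4 to 0.0479 without BPA female replicate 1. The share of nuclear promoters with the letters for estrogen-related receptors was 0% on the gene's strand alone. Counting alone would give a coefficient of variation of 31.9% for Cox7b2 and 17.5% for Cox4i2, near the measured 37.5% and 19.5%, but 11.6% for Cox6b2, against a measured 26.8%.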
